A study of Mus musculus with 8 samples.

Results

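The genes described here encode 10 subunits of the mitochondrial ATP synthase: Atp5a1, Atp5b, Atp5c1, Atp5d, Atp5e, Atp5g1, Atp5g2, Atp5g3, Atp5l and Atp5o. They were chosen by name, and all 10 were found among the 20660 mouse genes that the array's RefSeq accessions matched. Together they are read by 16 of the 55681 probes on the array, with 5 probes for Atp5l, 2 each for Atp5c1 and Atp5g2, and 1 for each of the others. The study asked how mice lacking 1 copy of Eif6, a translation initiation factor, differ from wild-type (WT) mice in skeletal muscle. Total RNA of gastrocnemius, a muscle of mixed fibre type, and of tibialis anterior (TA), a fast glycolytic muscle, was hybridised to 2-colour Agilent arrays, 4 arrays per muscle. Each array held RNA of an Eif6+/- muscle labelled with Cy5 and RNA of the same muscle of a WT mouse labelled with Cy3, and arrays are named here by the pair number in the labels, 1 to 4. All groups were untreated male C57BL6 littermates 8 to 16 weeks old. The Eif6 allele was inactivated in the whole body and not in muscle alone. No array had the dyes exchanged, so dye and genotype cannot be told apart within a muscle, and all 8 arrays lay on 1 slide 1 row per muscle, so an effect of the row would read as one of the muscle.

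ATP synthase is the enzyme of the inner mitochondrial membrane that makes ATP from ADP and phosphate as protons flow back into the matrix. Its F1 head carries alpha and beta subunits, which hold the catalytic sites, around a gamma shaft that delta and epsilon subunits join to a ring of c subunits in the membrane, while a peripheral stalk, of which the OSCP subunit encoded by Atp5o is the top, keeps the head from turning with the ring. Skeletal muscle fibres rich in mitochondria hold large amounts of the enzyme, and nearly all of its subunits are encoded in the nucleus. Atp5g1, Atp5g2 and Atp5g3 encode the same mature c subunit behind different import signals, so cross-hybridisation between their transcripts is possible and was not tested.

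As a check of the labels, Eif6 was lower in the Eif6+/- channel on all 8 arrays, with log2 ratios between -1.32 and -0.80 over its 2 probes. The members were among the bright probes of the array, between the 93.84 and 99.66 percentile of mean signal, with 0 saturated spots, and all 16 of their probes passed the filter on dim probes in both muscles. Values below are log2 ratios of Eif6+/- over WT, or log2 levels of 1 channel after normalization. A gene is counted by its brightest probe and is called where the limma p, adjusted by the Benjamini-Hochberg method over all probes kept, is under 0.1. Errors are the SD over arrays.

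In gastrocnemius, 6 of the 10 members rose in Eif6+/- mice: Atp5a1, Atp5b, Atp5c1, Atp5g1, Atp5g3 and Atp5l. None fell (0 of 10), and 9 had a mean ratio above 0. Over all 12615 genes tested, 9.86% were called higher and 5.53% lower. The members' median log2 ratio was 0.38, against 0.020 over all genes. In TA, Atp5b alone rose, Atp5d alone fell and 8 members were not called, where 8.98% of 12387 genes were called higher and 7.28% lower. The median there was 0.11, against 0.019 over all genes. The difference between the muscles was tested directly, and limma called 0 of the 10 members and 0 (0%) of 12206 genes in either direction. At an unadjusted p under 0.05 it held 5 members and 997 genes, which are 8.17% of those tested. Without gastrocnemius array 3 or TA array 3 it held 2 members and 603 or 623 genes. Without gastrocnemius array 1 or TA array 4 it held 3 members and 745 or 810 genes, and without gastrocnemius array 2, 5 members and 1819 genes. Without gastrocnemius array 4, TA array 1 or TA array 2 it held 5 members and 1028, 854 or 1150 genes. A rise called in gastrocnemius and not in TA is therefore not shown to differ between them. The calls rest on few arrays: without gastrocnemius array 3, or without array 4, limma called 0 members and 0 genes of the whole array in that muscle, with 6 members at an unadjusted p under 0.05 in either case and 2427 and 2652 genes. Without TA array 1 or array 2, 0 members were called in TA and 2 of 10 had an unadjusted p under 0.05, as had 2206 and 2829 of 12387 genes, so the members' share was near that of all genes. By a one-sample test with no sharing of spread between genes 0 members were called in either muscle, with 5 in gastrocnemius and 2 in TA at an unadjusted p under 0.05, beside 2587 of 12615 and 2556 of 12387 genes, so that in TA the share was again that of all genes. SAM called the same numbers as limma, 6 higher in gastrocnemius and 1 in each direction in TA, but it called more of all genes, 17.3% higher and 8.29% lower in gastrocnemius and 11.9% and 8.93% in TA.

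**Figure D1:**
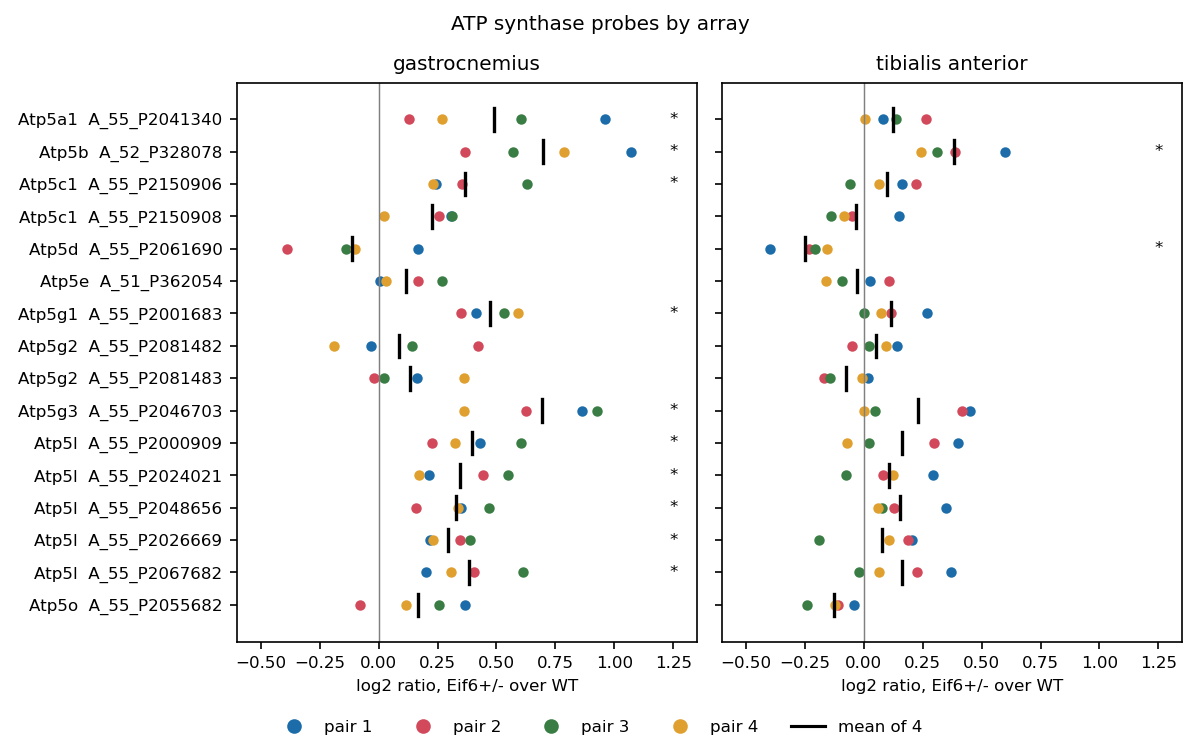
Log2 ratio of Eif6+/- over WT for each of the 16 member probes on each array, by muscle, with a black bar at the mean of 4 arrays and an asterisk where the adjusted p is under 0.1. In gastrocnemius 15 of 16 probe means lie above 0 and 10 are called higher, while in TA 11 lie above 0, 1 is called higher and 1 lower. Over all probes tested, 8.08% are called higher and 5.68% lower in gastrocnemius, and 7.68% and 7.52% in TA.

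Of the F1 head, Atp5b encodes the catalytic beta subunit. Its log2 level in WT gastrocnemius was 15.85, 16.18, 16.04 and 16.10 on arrays 1 to 4, and in Eif6+/- gastrocnemius 16.92, 16.55, 16.61 and 16.89. Every Eif6+/- level lay above every WT level, and array 1 held both the lowest WT and the highest Eif6+/- value. The log2 ratios of 1.07, 0.37, 0.57 and 0.79 gave a mean of 0.70 ± 0.301 (n = 4), a 1.62-fold rise with an adjusted p of 0.0333. In TA the WT levels were 16.31, 16.49, 16.41 and 16.54 and the Eif6+/- levels 16.91, 16.88, 16.72 and 16.78. These groups did not overlap either, and all 4 ratios were above 0, at 0.60, 0.39, 0.31 and 0.24. The mean of 0.38 ± 0.154 was a 1.31-fold rise with an adjusted p of 0.0357. Atp5b was the only member called higher in both muscles, and the difference between them was 0.31, with a 95% interval of -0.015 to 0.64 and an adjusted p of 0.647. Without gastrocnemius array 3 or 4 its adjusted p there was 0.128 or 0.157, and without TA array 1 or 2 it was 0.178 or 0.107 in TA.

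Atp5a1 encodes the alpha subunit, which alternates with beta in the head. On arrays 1 to 4 the WT level in gastrocnemius was 14.96, 15.49, 15.13 and 15.59 and the Eif6+/- level 15.92, 15.62, 15.74 and 15.86. The groups did not overlap, but by little, since the lowest Eif6+/- and the highest WT value were 15.62 and 15.59, and the WT values were more spread (SD 0.296) than the Eif6+/- values (SD 0.134). The ratios were 0.96, 0.13, 0.61 and 0.27, with a mean of 0.49 ± 0.371, a 1.41-fold rise at an adjusted p of 0.0787. This was the most spread and least firm of the 6 calls: without gastrocnemius array 1 the mean was 0.33 with an adjusted p of 0.127, and without array 3 or 4 the adjusted p was 0.253 or 0.182. In TA its ratios were 0.084, 0.26, 0.14 and 0.0076, all above 0, but the mean of 0.12 ± 0.107 was not called (adjusted p 0.304). Between the muscles it differed by 0.37 (adjusted p 0.646).

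Atp5c1 encodes the gamma shaft. Its brighter probe gave WT gastrocnemius levels of 12.83, 12.64, 12.53 and 12.75 and Eif6+/- levels of 13.07, 13.00, 13.16 and 12.99, again without overlap. The ratios were 0.24, 0.35, 0.63 and 0.23, and their mean of 0.36 ± 0.186 was a 1.29-fold rise (adjusted p 0.0618). The other Atp5c1 probe had ratios of 0.31, 0.26, 0.31 and 0.025 and a mean of 0.22 ± 0.136, which was not called (adjusted p 0.134), so the probes gave the same sign on every gastrocnemius array but not the same call. Without gastrocnemius array 2, 3 or 4 the brighter probe was not called either, with adjusted p of 0.11, 0.193 and 0.172. In TA the brighter probe averaged 0.098 ± 0.122 and the other -0.031 ± 0.125, neither called, at adjusted p of 0.421 and 0.819. The brighter probe's difference between the muscles was 0.27 (adjusted p 0.638).

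Of the small subunits of the central stalk, neither was called in gastrocnemius. Atp5d, the delta subunit, had gastrocnemius ratios of 0.17, -0.39, -0.14 and -0.098, with a mean of -0.11 ± 0.228 that was not called (adjusted p 0.503). It was the only member with a mean below 0 in gastrocnemius. In TA its WT levels were 14.73, 14.52, 14.35 and 14.62 and its Eif6+/- levels 14.33, 14.29, 14.15 and 14.46. These groups overlapped, since the level fell within each pair but the pairs lay at different heights. The ratios of -0.40, -0.23, -0.21 and -0.16 were below 0 on 4 of 4 arrays, and the mean of -0.25 ± 0.105 was the only call downward among the members in either muscle (adjusted p 0.0745). That call was lost without TA array 1, 2 or 3, at adjusted p of 0.275, 0.175 and 0.136, and also where the arrays of both muscles shared their spread, at 0.11. Between the muscles Atp5d differed by 0.13 (adjusted p 0.794).

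Atp5e, the epsilon subunit, had gastrocnemius ratios of 0.0061, 0.17, 0.27 and 0.030, with a mean of 0.12 ± 0.123 (adjusted p 0.377). Its TA ratios were 0.027, 0.11, -0.092 and -0.16 with a mean of -0.029 ± 0.118 (adjusted p 0.825), and the sign of this mean turned with the normalization, to 0.0089 with loess alone and 0.030 in the deposited ratios. Neither mean was larger than its SD.

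Of the c ring, Atp5g3 had the largest gastrocnemius ratio after Atp5b. On arrays 1 to 4 its WT level was 15.29, 15.41, 15.22 and 15.76 and its Eif6+/- level 16.16, 16.04, 16.14 and 16.13. The Eif6+/- levels were close together (SD 0.0539) and all lay above the more spread WT levels (SD 0.241). The ratios of 0.86, 0.62, 0.92 and 0.36 gave a mean of 0.69 ± 0.255, a 1.62-fold rise (adjusted p 0.0311). In TA the ratios were 0.45, 0.42, 0.050 and 0, the WT and Eif6+/- levels overlapped, and the mean of 0.23 ± 0.238 was not called (adjusted p 0.165). With loess alone or in the deposited ratios Atp5g3 was called in TA, at 0.27 (adjusted p 0.0734) and 0.29 (adjusted p 0.0768). The difference between the muscles, 0.46 with a 95% interval of 0.13 to 0.80, was the largest among the members (adjusted p 0.636, unadjusted p 0.0118).

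Atp5g1 had the least spread ratios of the 6 genes called. Its WT gastrocnemius levels were 15.73, 15.68, 15.59 and 15.85 and its Eif6+/- levels 16.14, 16.03, 16.13 and 16.44, without overlap. The ratios were 0.41, 0.35, 0.53 and 0.59, and the mean of 0.47 ± 0.111 was a 1.39-fold rise (adjusted p 0.0319). In TA the WT levels were 16.09, 16.34, 16.35 and 16.44 and the Eif6+/- levels 16.36, 16.45, 16.35 and 16.51, which overlapped. The ratios there were 0.27, 0.12, 0 and 0.074, with a mean of 0.11 ± 0.114 that was not called (adjusted p 0.339), while loess alone gave 0.26 (adjusted p 0.0877) and the deposited ratios 0.29 (adjusted p 0.0777). The difference between the muscles was 0.36 (adjusted p 0.636, unadjusted p 0.00441). Without gastrocnemius array 3 or 4 the adjusted p in gastrocnemius was 0.128 or 0.157 for Atp5g1 and 0.125 or 0.156 for Atp5g3. The exact ratios of 0 for Atp5g1 on TA array 3 and for Atp5g3 on TA array 4 come from the quantile step, which gives equal values to equal ranks in the 2 channels. With loess alone these spots read 0.22 and 0.21.

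Atp5g2, the other c subunit gene, was not called by either probe in either muscle. Its brighter probe had gastrocnemius ratios of -0.030, 0.42, 0.14 and -0.19 with a mean of 0.087 ± 0.261 (adjusted p 0.643), and the other probe had 0.16, -0.018, 0.023 and 0.36 with a mean of 0.13 ± 0.173 (adjusted p 0.371). Array 2 was the highest with the brighter probe and the lowest with the other, and array 4 the reverse. Without gastrocnemius array 2 the mean of the brighter probe was -0.025. The TA means were 0.051 ± 0.0825 and -0.075 ± 0.0943, with adjusted p of 0.666 and 0.523.

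**Figure D2:**
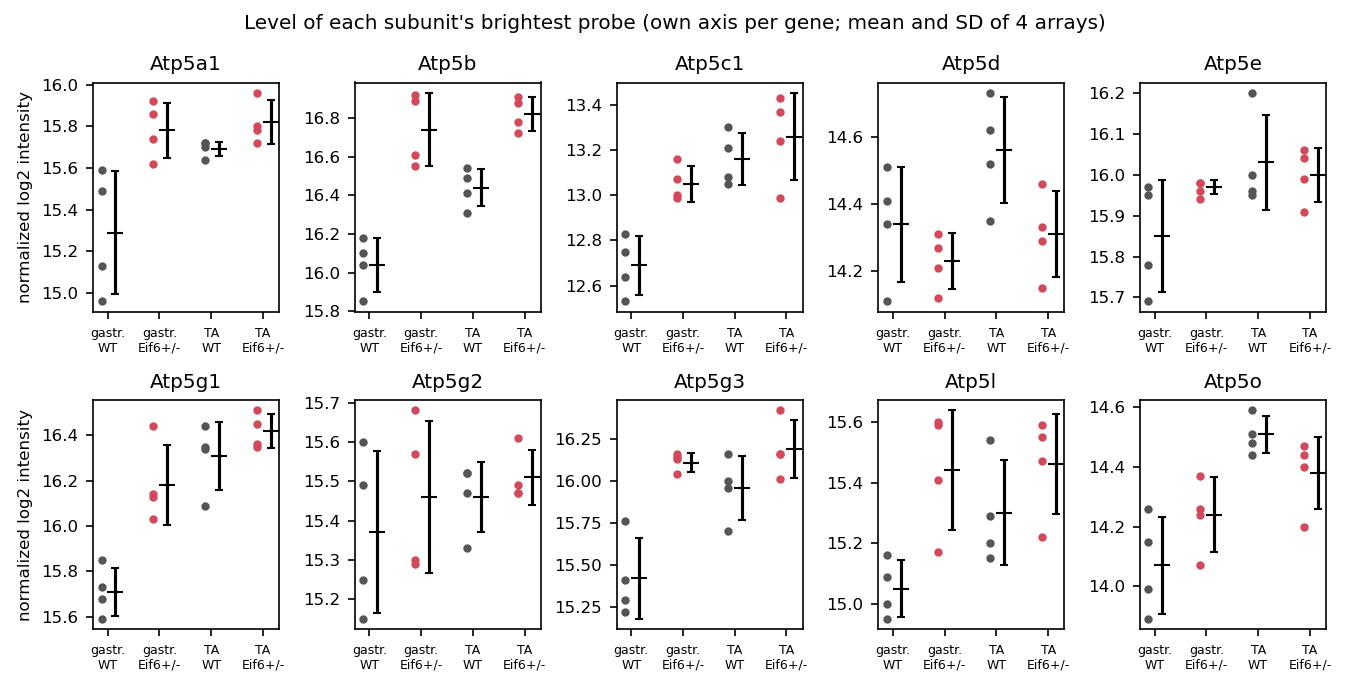
Log2 level after normalization of each member's brightest probe in WT and Eif6+/- muscle, with the mean and SD of 4 arrays, each gene on its own axis. In gastrocnemius the WT and Eif6+/- levels of Atp5a1, Atp5b, Atp5c1, Atp5g1, Atp5g3 and Atp5l do not overlap, and in TA those of Atp5b do not. These are the members called higher in that muscle, as were 9.86% of all genes in gastrocnemius and 8.98% in TA. The share of all genes without overlap was not counted.

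Atp5l encodes subunit g, a small membrane subunit at the interface where synthase dimers meet. It was read by 5 probes, and all 5 were called higher in gastrocnemius, with mean ratios from 0.30 to 0.40. The brightest probe had WT levels from 14.95 (array 2) to 15.16 (array 1) and Eif6+/- levels of 15.59, 15.17, 15.60 and 15.41 on arrays 1 to 4, and the groups did not overlap, the nearest values being 15.16 and 15.17. Its ratios of 0.43, 0.23, 0.60 and 0.33 gave a mean of 0.40 ± 0.16 (adjusted p 0.0479). The dimmest probe had ratios of 0.20, 0.40, 0.61 and 0.31 and a mean of 0.38 ± 0.175 (adjusted p 0.0533), and the remaining 3 probes had adjusted p of 0.0674, 0.058 and 0.0614. Array 3 gave the highest ratio with every one of the 5 probes. In TA none of the 5 probes (0 of 5) was called, with means from 0.078 to 0.16 and adjusted p from 0.225 to 0.58. The brightest probe's TA ratios were 0.40, 0.30, 0.021 and -0.069, higher on arrays 1 and 2 than on arrays 3 and 4, and its mean was 0.16 ± 0.222, which turned to -0.017 in Agilent's processed signals. Its muscle difference was 0.23 (adjusted p 0.669). Without gastrocnemius array 3 or 4 the adjusted p of the brightest probe in gastrocnemius was 0.167 or 0.169. Its gastrocnemius call was also lost with Agilent's processed signals.

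Atp5o, the OSCP subunit of the stalk, had gastrocnemius ratios of 0.37, -0.081, 0.26 and 0.12 with a mean of 0.17 ± 0.193 (adjusted p 0.295). In TA the ratios of -0.039, -0.11, -0.24 and -0.12 were below 0 on 4 of 4 arrays, but the mean of -0.13 ± 0.0838 was not called (adjusted p 0.268). With loess alone it was called lower in TA at -0.23 (adjusted p 0.0689), and in the deposited ratios too, at -0.22. The difference between the muscles was 0.29 with a 95% interval of 0.047 to 0.54 (adjusted p 0.636, unadjusted p 0.0241).

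**Figure D3:**
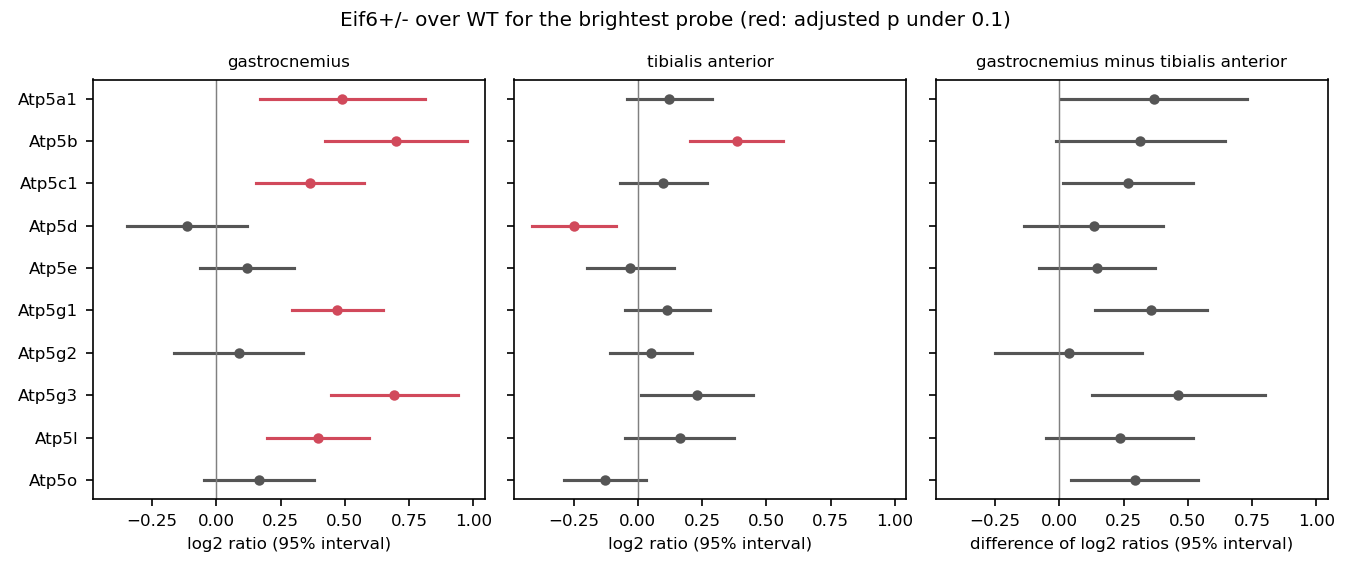
Mean log2 ratio of Eif6+/- over WT for each member's brightest probe in gastrocnemius and in TA, and the difference between the muscles, with 95% intervals from limma and red where the adjusted p is under 0.1. All 10 differences lie above 0, between 0.036 and 0.46, and none is called.

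The members can also be read array by array. The median log2 ratio of the 10 genes was 0.39, 0.29, 0.55 and 0.25 on gastrocnemius arrays 1 to 4, with 9, 8, 9 and 8 genes above 0. On the TA arrays it was 0.15, 0.17, 0.011 and 0.0038, with 8, 7, 5 and 5 genes above 0. Every gastrocnemius array lay above every TA array, and TA arrays 3 and 4 sat at the level of all genes, whose medians were between 0.0037 and 0.037 on the 8 arrays. Loess alone placed the 4 TA arrays at 0.084, 0.19, 0.068 and 0.12 and the deposited ratios at 0.12, 0.20, 0.076 and 0.11, whereas Agilent's processed signals gave 0.097, 0.11, -0.066 and -0.016. The low values on TA arrays 3 and 4 were thus not seen under each normalization. Over the 8 arrays the ratio of Atp5g3 followed the mean of the other members most closely (Pearson r 0.935, n = 8), next Atp5o (0.925), Atp5l (0.857) and Atp5a1 (0.801), while Atp5d (0.409) and Atp5g2 (-0.116) did so least. These are descriptions over arrays of both muscles, which share a slide and the normalization.

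Levels of the members in WT mice differed between the muscles, or between the slide rows that held them. In WT mice 6 of 10 members were lower in gastrocnemius than in TA and 0 were higher by limma, where 13.2% of 12206 genes were called lower and 7.91% higher. All 10 differences were below 0, with a median of -0.40 against -0.033 over all genes, and 7 had an unadjusted p under 0.05, where 31% of all genes had. Without 1 array, 5 or 6 members were called lower, with 7.4 to 12.2% of genes lower and 4.86 to 9.11% higher. Atp5g1 had WT levels of 15.59 to 15.85 in gastrocnemius and 16.09 to 16.44 in TA, which did not overlap, for a difference of -0.59 (adjusted p 0.00737). For Atp5c1 the ranges were 12.53 to 12.83 and 13.05 to 13.30, again apart, and the difference was -0.47 (adjusted p 0.0145). Those of Atp5o, 13.89 to 14.26 and 14.44 to 14.59, and of Atp5b, 15.85 to 16.18 and 16.31 to 16.54, did not overlap either. Their differences were -0.44 (adjusted p 0.0187) and -0.39 (adjusted p 0.0257). Atp5g3 differed by -0.54 (adjusted p 0.0333) with ranges that met between 15.70 and 15.76, and Atp5a1 by -0.40 (adjusted p 0.078), a call that was lost without gastrocnemius array 1 or 3 or any of the 4 TA arrays (adjusted p 0.134 to 0.183). Of Atp5l the brightest probe was not called (-0.25, adjusted p 0.131), but 3 of its 4 other probes were, at -0.38, -0.41 and -0.47. Atp5d, Atp5e and Atp5g2 were not called, at -0.22, -0.18 and -0.087.

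Set side by side, the group means of Atp5g1 were 15.71 ± 0.105 in WT gastrocnemius, 16.18 ± 0.177 in Eif6+/- gastrocnemius, 16.31 ± 0.15 in WT TA and 16.42 ± 0.0764 in Eif6+/- TA. Those of Atp5g3 were 15.42 ± 0.241, 16.11 ± 0.0539, 15.96 ± 0.191 and 16.19 ± 0.172 in the same order, and those of Atp5b 16.04 ± 0.14, 16.74 ± 0.19, 16.44 ± 0.0973 and 16.82 ± 0.0897. For each of these genes WT gastrocnemius was the lowest of the 4 groups. The gastrocnemius groups in Eif6+/- mice lay within 1 SD of a TA group for Atp5g1, Atp5g3 and Atp5b, and levels of Eif6+/- gastrocnemius against TA were not tested. The WT channel enters both the genotype ratios and the muscle difference in WT mice, so these values are not independent of each other.

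Promoters of 9 of the 10 genes were searched for short motifs of known regulators of mitochondrial genes, in 11 RefSeq windows of the GRCm38.p6 build, each 300 bases long and reaching just past the start of transcription. Of the 5 genes with a match 4 are shown, chosen after their values were seen, and Atp5e, with 2 SP1 matches, is not shown. Capitals mark matches on either strand to the letters searched: GCATGCGC for NRF1, CCGGAAGT for ETS factors such as GABP, TCAAGGTCA for ERR, AANATGGCG for YY1, TGACGTCA for CRE and GGGCGG for SP1. The Atp5b window, chr10:128083057-128083356 on the plus strand, held 1 YY1 and 2 SP1 matches. That of Atp5g3, chr2:73911277-73911576 on the minus strand, held 1 ERR match, and that of Atp5l, chr9:44920693-44920992 on the minus strand, 1 NRF1 match. The window of Atp5g2, chr15:102670998-102671297 on the minus strand, is shown as that of a gene not called in either muscle, and held 2 overlapping NRF1 matches on opposite strands and 1 SP1 match.
Atp5b: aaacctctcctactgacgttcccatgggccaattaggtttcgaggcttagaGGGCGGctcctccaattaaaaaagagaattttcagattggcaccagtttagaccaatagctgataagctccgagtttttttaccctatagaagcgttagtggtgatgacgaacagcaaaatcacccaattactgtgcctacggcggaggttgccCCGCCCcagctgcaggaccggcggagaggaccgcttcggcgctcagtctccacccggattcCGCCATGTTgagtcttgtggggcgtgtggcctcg
Atp5g3: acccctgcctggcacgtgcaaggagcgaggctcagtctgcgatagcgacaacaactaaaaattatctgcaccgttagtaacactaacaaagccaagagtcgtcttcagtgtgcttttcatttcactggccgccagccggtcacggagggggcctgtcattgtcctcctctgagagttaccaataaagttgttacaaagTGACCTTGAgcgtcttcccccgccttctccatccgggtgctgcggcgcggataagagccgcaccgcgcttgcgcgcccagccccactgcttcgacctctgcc
Atp5l: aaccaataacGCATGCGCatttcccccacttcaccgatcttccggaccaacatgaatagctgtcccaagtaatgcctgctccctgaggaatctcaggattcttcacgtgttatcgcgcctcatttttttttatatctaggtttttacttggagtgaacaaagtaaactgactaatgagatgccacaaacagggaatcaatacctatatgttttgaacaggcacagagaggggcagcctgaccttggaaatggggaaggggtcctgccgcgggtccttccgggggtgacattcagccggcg
Atp5g2: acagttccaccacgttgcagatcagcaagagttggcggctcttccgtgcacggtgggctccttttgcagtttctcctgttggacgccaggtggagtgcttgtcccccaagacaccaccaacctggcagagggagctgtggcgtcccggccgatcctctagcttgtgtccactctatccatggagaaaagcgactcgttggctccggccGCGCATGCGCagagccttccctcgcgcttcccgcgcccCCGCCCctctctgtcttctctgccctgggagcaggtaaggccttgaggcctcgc
By gene, NRF1 letters were found in 2 of 9 members, SP1 letters in 3, and ERR and YY1 letters in 1 each, against 2.71%, 35.7%, 0.423% and 2.38% of all 32851 promoter windows. ETS and CRE letters, in 3.89% and 1.79% of all windows, were found in 0 of 9. A match is a run of letters and not a bound site, and NRF1 letters were found both in Atp5l, which rose in gastrocnemius, and in Atp5g2, which was not called.

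Among the remaining genes of the enzyme on the array, which are 7 subunits, the inhibitor Atpif1 and the associated factor Dmac2l, 3 of 9 were called higher in gastrocnemius and 0 lower by limma, and all 9 had means above 0 with a median of 0.26. These were Atp5k (subunit e, 0.40 ± 0.135, adjusted p 0.042), Atp5mpl (0.38 ± 0.278, adjusted p 0.0871) and Atp5j (coupling factor 6, 0.34 ± 0.219, adjusted p 0.0817). Not called were Atp5j2 (0.28), Atp5md (0.26), Atp5pb (0.24), Atpif1 (0.23), Dmac2l (0.19) and Atp5h (0.17). The other probe of Atp5k was not called (0.20, adjusted p 0.212). Without gastrocnemius array 1 or 2, 1 of the 9 was called, with 8.3% or 6.33% of all genes called higher. In TA the median was 0.0076, from -0.037 without array 1 to 0.062 without array 4, so its sign turned with single arrays. There limma called 0 of 9 in either direction, with 1 of them, Atpif1, at an unadjusted p under 0.05 (0.031), although the dimmer probe of Atp5j2 was lower (-0.27, adjusted p 0.0703), and without TA array 4, 1 was called higher. In WT mice 8 of 9 were lower in gastrocnemius than in TA, with a median of -0.52, Atpif1 being the exception at 0.022. The mitochondrially encoded subunits mt-Atp6 and mt-Atp8 were not matched to a probe.

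Of 4 assembly factors, Fmc1 was called higher in gastrocnemius (0.30 ± 0.162, adjusted p 0.0827) and Atpaf2, which helps the alpha subunit fold, lower in TA (-0.33, adjusted p 0.046), where its other probe was not (-0.16, adjusted p 0.209). Atpaf1, the chaperone of beta, and Tmem70 were called in neither. The Fmc1 call was lost without any of the 4 arrays of its muscle (adjusted p 0.103 to 0.254), where 0 to 8.3% of all genes were called higher. That of Atpaf2 was lost without TA array 1, 2 or 3 (adjusted p 0.208, 0.124 and 0.112). There 0.121%, 1.57% and 3.63% of all genes were called lower, against 7.28% on all 4 arrays.

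Of 3 carriers that bring ADP and phosphate to the synthase, 2 were called higher in both muscles, as Atp5b was. Slc25a3, the phosphate carrier, rose by 0.50 ± 0.151 in gastrocnemius (adjusted p 0.0322) and 0.27 ± 0.173 in TA (adjusted p 0.0847), but its other probe rose in gastrocnemius alone (0.38, adjusted p 0.0571, against -0.072, adjusted p 0.698, in TA). Slc25a4, the adenine nucleotide carrier of muscle, rose by 1.01 ± 0.144 in gastrocnemius (adjusted p 0.0241), more than any member, and by 0.39 ± 0.322 in TA (adjusted p 0.0759), with a muscle difference of 0.62 that was not called (adjusted p 0.636). Slc25a5 was called in neither (0.032 and -0.066), while Slc25a31 did not pass the filter on dim probes. Both TA calls were lost without TA array 1, 2 or 3, where 0 of 3 carriers were called. Of all genes 0.428%, 2.71% and 5.93% were called higher there, against 8.98% on all 4 arrays.

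In the respiratory chain, which builds the proton gradient that the synthase uses, medians in gastrocnemius lay near that of the other synthase genes. Complex I had 15 of 37 subunits higher and 0 lower, with a median of 0.26, and those with the largest ratios were Ndufb2 (0.48), Ndufc1 (0.46) and Ndufb5 (0.46). Complex II had 2 of 4 higher (Sdhb 0.78 and Sdha 0.39, though the other Sdhb probe was not called at 0.20, adjusted p 0.453, and was lower in TA at -0.29, adjusted p 0.0833), complex III 4 of 9 (median 0.34, led by Uqcrfs1 at 0.63) and complex IV 5 of 14 (median 0.21, led by Cox8b at 0.40), with 0 lower in each. All of these calls were lost without gastrocnemius array 3 or 4, where 0 genes of the whole array were called. Without array 1 complexes II and IV held 1 and 0, and without array 2 complex IV held 2. Of all genes 8.3% were called higher without array 1 and 6.33% without array 2, against 9.86% on all 4 arrays. In TA the calls were 1 higher (Ndufc1) and 5 lower in complex I, and 0 higher and 1, 2 and 2 lower in complexes II, III and IV. The TA median of complex I was -0.019 (0.038 without array 4) and that of complex IV -0.080 (-0.14 to -0.024 without 1 array), where the members' 0.11 ran from 0.070 to 0.13. Complex II had a TA median of -0.018 (0.038 without array 4) and complex III one of 0.024 (-0.033 without array 1). Without TA array 1 all of these calls were lost, and over all genes 0.428% were called higher and 0.121% lower. For complexes I to IV in turn, those lower were 1, 0, 1 and 1 without TA array 2 and 2, 1, 1 and 1 without array 3, with 0 higher but for 1 in complex I without array 3. Without array 4 there were 3, 1, 1 and 1 higher and 5, 1, 1 and 1 lower. The balance of higher and lower calls thus depended on single arrays, as did the share of all genes called. That share was 2.71% higher and 1.57% lower without TA array 2, and 5.93% and 3.63% without array 3. Without array 4 it was 8.84% and 7.47%, against 8.98% and 7.28% on all 4 arrays. In WT mice 32 of 37 complex I subunits were lower in gastrocnemius than in TA, the direction of the members, where 13.2% of all genes were. Without TA array 4 it was 18, and 19 without TA array 2 or gastrocnemius array 3. Of all genes 7.92%, 8.47% and 7.4% were lower without these 3 arrays in turn. The vacuolar ATPase, a proton pump of other membranes with a related build, had 0 of 17 higher and 4 lower in gastrocnemius. The median there was -0.16, and -0.20 to -0.081 without 1 array. In TA 1 was higher and 3 were lower. Without array 2, 1 was lower in gastrocnemius, and in TA 0 were called without array 1, 1 lower without array 2 and 5 lower without array 4. Between the muscles of WT mice 0 of its 17 subunits were called, and 1 higher without gastrocnemius array 1 or 4. The largest of its ratios was that of Atp6v0b, -0.78 in gastrocnemius and -0.59 in TA. At an adjusted p under 0.1, 3 of 13 regulators of mitochondrial genes were higher in gastrocnemius: Ppara (0.97 ± 0.902, adjusted p 0.0982), the coactivator Ppargc1a (0.33 ± 0.11, adjusted p 0.053) and Gabpa (0.27 ± 0.128, adjusted p 0.0864), where another probe of Ppargc1a (0.079, adjusted p 0.736) and 1 of Ppara (0.20, adjusted p 0.178) were not called. Without gastrocnemius array 1 or 2 the regulators called were 1 or 5. In TA 0 of 13 were called in either direction, and 1 lower without array 4.

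**Figure D4:**
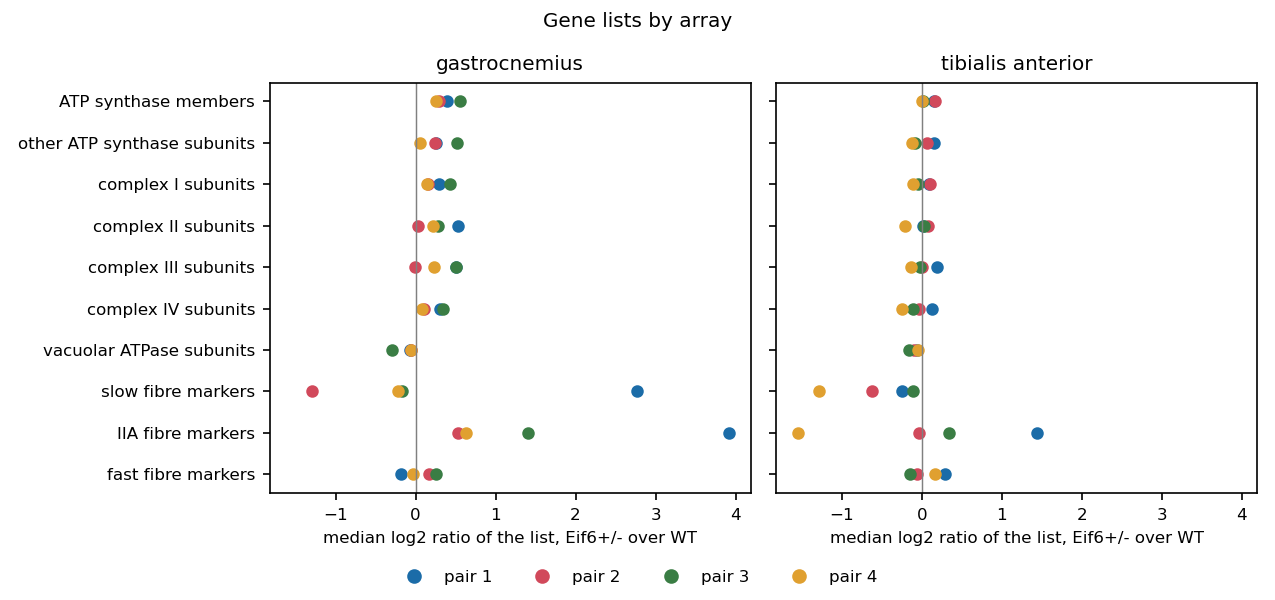
Median log2 ratio of Eif6+/- over WT by array for the members and for the other gene lists. The members lie at 0.25 to 0.55 on the gastrocnemius arrays and at 0.0038 to 0.17 on the TA arrays, while the slow fibre markers run from -1.29 to 2.77 on the gastrocnemius arrays.

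Genes that mark the fibre types and other cells of muscle varied between the arrays too. Whole muscle was extracted, so fewer cells of a type and less RNA per cell cannot be told apart. In gastrocnemius 0 of 8 slow fibre markers were called, with a median of 0.48, but their median by array was 2.77, -1.29, -0.17 and -0.22, and without array 1 the median was -0.54 and 3 were called lower. Myl3 was the brightest of them, and their mean WT level was lowest on array 1, at 10.08 against 11.88, 11.65 and 13.22 on arrays 2 to 4. Myh2, the myosin of oxidative IIA fibres, had ratios of 3.92, 0.52, 1.41 and 0.62 on the same arrays, with a mean of 1.62 that was not called (adjusted p 0.104) but was called without array 1 or 2, and TA ratios of 1.44, -0.041, 0.34 and -1.55. Gastrocnemius array 1, where these markers were highest, was also the array with the highest ratios of Atp5a1, Atp5b, Atp5d and Atp5o, whereas the member median was highest on array 3. In TA the Myh2 ratio and the member median were both lowest on array 4. Myh2 was highest there on array 1, whereas the member median was highest on array 2, at 0.17 against 0.15 on array 1. In TA 4 of 8 slow fibre markers fell, most strongly Tnnt1 (-0.90), Tnni1 (-0.80) and Myoz2 (-0.53), and their median by array was -0.24, -0.62, -0.11 and -1.28. Without TA array 1 or 2, 0 or 2 of the 8 were called, with 0.121% or 1.57% of all genes called lower. In WT mice 6 of 8 slow markers were higher in gastrocnemius than in TA, with a median of 2.11, opposite to the members, and so were 5 of 6 fat cell markers (median 2.34) and 3 of 5 fibroblast markers (median 1.06). The part of fibre and cell make-up in the members' ratios and in their muscle difference was not tested.

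Of 10 fast fibre markers 1 was higher and 2 lower in gastrocnemius, and 2 were higher and 2 lower in TA, the brightest being Pvalb, with list medians of -0.029 and 0.0032. Both medians changed sign without array 1 of their muscle, to 0.093 in gastrocnemius and -0.093 in TA. Without gastrocnemius array 1 there were 4 higher and 2 lower and without array 2, 1 and 0, while in TA 0 were lower without array 1, 2 or 3 and 1 was higher without array 1. General fibre markers had 0 higher and 2 of 5 lower in each muscle, with Acta1 the brightest, but 1 lower in gastrocnemius without array 2, and in TA 0 without array 1, 1 without array 2 or 3 and 3 without array 4. Blood markers had 0 of 3 called in gastrocnemius, but 3 of 3 lower without array 1, and 4 of 4 lower in TA, where 0 of 4 were called without array 1, with Hba-a1 the brightest. For the 3 blood markers kept in both muscles the TA medians by array were -0.70, -1.29, -0.79 and -0.40. Fat cell markers had 2 of 6 lower in gastrocnemius (1 without array 1) and 3 of 6 higher in TA, the brightest being Fabp4, with TA medians by array of 0.52, -0.13, 1.33 and 0.48 and 0 called without TA array 1, 4 without array 2 and 1 without array 3 or 4. Myelinated nerve markers (brightest Prx) had 0 of 4 called in gastrocnemius and 3 of 4 lower in TA, where their medians lay between -0.29 and -0.22 and 1 was called without array 1. Endothelial markers (brightest Kdr) had 1 and 2 of 4 lower, with medians between -0.55 and -0.13 on all arrays and 2 called in gastrocnemius without array 1, and in TA 0 without array 1 and 1 without array 2 or 4. Of the leukocyte markers 1 of 2 was lower in gastrocnemius, Cd74, which was also the brightest, and 0 of 3 were called in TA. Fibroblast markers (brightest Col1a2) had 0 of 5 called in each muscle, 1 lower without gastrocnemius array 2 or TA array 3 and 1 higher without TA array 2, and medians by array from -1.31 to 0.15 in gastrocnemius and from -0.77 to 1.40 in TA. The part of all these markers in the members' values was not tested. Calls over all genes also changed without single arrays. Higher in TA were 0.428%, 2.71%, 5.93% and 8.84% of genes without array 1, 2, 3 or 4, and lower 0.121%, 1.57%, 3.63% and 7.47%. In gastrocnemius 8.3% were higher and 5.72% lower without array 1, and 6.33% and 4.39% without array 2.

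By the likeness of their ratios over the 8 arrays, the genes outside these lists closest to the mean of the members were Tmem126b (Pearson r 0.99, n = 8), Sirt3 (0.99), 1110020A21Rik (0.985), Fahd2a (0.985) and Fars2 (0.983), of 12038 genes compared. Their mean ratios were 0.36, 0.60, 0.36, 0.32 and 0.27 in gastrocnemius and 0.039, 0.030, -0.072, 0.017 and -0.016 in TA. A correlation above 0.9 was reached by 103 genes and above 0.8 by 510. With 8 arrays in 2 muscles such values describe a shared profile over the arrays and no more.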

How the data were processed

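Per the file headers, the authors' scanner files hold median spot and local background intensity for each dye from Agilent Feature Extraction 10.5.1.1, with processed signals and their log10 ratio of Cy5 over Cy3. The deposited value table holds log2 ratios of Cy5 over Cy3 that matched loess-normalized uncorrected intensities of the same arrays (r 0.999963 to 0.999996). Scale, centring and direction are thereby known. Column medians, ordered by pair number, were 0.00257, 0.000831, -0.00441, 0.00375 (gastrocnemius), 0.00138, -0.000366, 0.00288, 0.00212 (TA). The labels give Cy5 for Eif6+/- and Cy3 for WT, and the study's methods name Cy3 labelling only.

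Median intensities were corrected by normexp (offset 50), normalized by loess within arrays and by quantiles over the 16 channels, and spots with outlier flags and control spots were left out. A probe was kept where at least 1 channel was well above background on all 4 arrays of a muscle, which left 23802 probes in gastrocnemius and 23391 in TA, of which 22765 passed in both. Cy5 held 43.6 to 48.6% of probes well above background and Cy3 38.7 to 46%. The number of arrays limits the precision. Ratios were tested against 0 in each muscle, and the muscles against each other for ratios and for WT levels, with limma 3.58.1 in R 4.3.3, and Benjamini-Hochberg adjustment over all kept probes. Alternatives were other normalizations, corrections and filters, SAM as implemented from its description over all sign changes, a one-sample test, a shared spread, a stricter threshold, medians of probes, a replicate block and leaving out each array. Scripts were tested on simulated data. Members, lists and the rule for named genes (all members and probes, all other synthase genes, assembly factors and carriers, at most 3 called genes with the largest ratio of each other list and muscle, and the brightest gene of each marker list) were chosen with earlier results of these data known. Accessions of 27235 probes matched RefSeq, and some names are older or newer than those printed on the array. Figures were drawn with matplotlib 3.10.9 in Python 3.11.15.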

Additional observations from a re-analysis of the deposited data

Results flagged for a closer look

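Dmac2l, a factor associated with the synthase, stood apart on gastrocnemius array 3, where its log2 ratio was 0.43, far from the other 3 arrays for their range. This was 1 of 102 sets of 4 values examined in this way, and chance gives about 1 in 20, so fewer stood apart than chance alone would give. The cause was not tested.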

How the results depend on the processing

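Without 1 gastrocnemius array the number of members called higher there ran from 0 to 5 (0 to 8.3% of genes), and without 1 TA array the numbers higher and lower in TA ran from 0 to 1 (0.428 to 8.84% and 0.121 to 7.47% of genes). In gastrocnemius 6 members and 9.86% of genes were called higher, against 3 and 6.44% with Agilent's processed signals, 4 and 7.41% with normexp offset 0, 4 and 3.44% at an adjusted p under 0.05, 5 and 6.59% with no filter on dim probes, and 0 and 0% by the one-sample test. The 3 called with processed signals were Atp5b, Atp5g1 and Atp5g3, so Atp5a1, Atp5c1 and Atp5l lost their calls there. In TA 1 member and 8.98% of genes were called higher, against 3 and 11% with loess alone, 3 and 9.86% in the deposited ratios, 0 and 4.15% with processed signals and 0 and 0.113% by the one-sample test. Called lower there were 1 member and 7.28% of genes, against 2 and 6.04% with loess alone, 2 and 5.9% in the deposited ratios, and 0 members with processed signals (2.71%), normexp offset 0 (4.28%), the one-sample test (0.0807%), the shared spread (5.75%) and an adjusted p under 0.05 (2.72%). The cause was not tested.

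Leaving out 1 array at a time, Atp5g2 ran from -0.025 (without gastrocnemius array 2) to 0.18 in gastrocnemius and from -0.077 to 0.13 in the muscle difference, and Atp5e in TA from -0.074 to 0.014 (without TA array 4). Signs also turned for Atp5e in TA with loess alone (0.0089) and in the deposited ratios (0.030), for Atp5l in TA with processed signals (-0.017), and for Atp5g2 in TA by the median of its probes (-0.012). None of these values was called. Each of the 10 members had 18 alternatives in gastrocnemius and in TA, 19 in the muscle difference and 15 in the WT difference. Over these, the call and sign were as in the text in 151 of gastrocnemius, 157 of TA, 189 of the muscle difference and 139 of the WT difference. Calls were lost in 28, 12, 0 and 10, and gained in 0, 6, 0 and 1. For the muscle difference at most 1 gene of the whole array was called in any alternative, so its calls could hardly have changed.

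SAM with a symmetric threshold on its statistic, an alternative chosen after seeing the data, called the same members as SAM. It called 15.2% of genes higher and 10.2% lower in gastrocnemius, and 11.8% and 9.32% in TA.

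Equal pair numbers in the muscles did not mark shared deviations (r -0.116, -0.00524, -0.362 and 0.106). With pairs as a block, 0 members were called in the muscle difference, at a median of 0.28, and 5 members and 9.41% of genes were lower in WT gastrocnemius than in WT TA, without Atp5a1 (adjusted p 0.101).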
